A study of Mus musculus with 17 samples.

Results

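The 9 genes described here encode transcription factors of osteoblast specification: Runx2, Sp7, Dlx3, Dlx5, Dlx6, Msx1, Msx2, Atf4 and Twist1. They were taken by name from the 55335 genes counted in each of 17 bulk RNA sequencing libraries of mouse bone cells, and all 9 passed the filter on low counts in every comparison. The libraries came from osteoprogenitor cells (OPCs, sorted as CD45- TER119- CD31- Sca-1- CD51+ cells with or without PDGFRα) and from skeletal stem cells (SSCs, sorted as Sca-1+ CD51+ PDGFRα+ within the same negative fraction) of the digested bone fraction. Donors were wild-type (WT, Cxcr4+/+), Cxcr4+/1013 (+/1013) and Cxcr4 1013/1013 (1013/1013) mice of 8 to 12 weeks. The 1013 allele is a germline knock-in that truncates the intracellular tail of the chemokine receptor CXCR4 and models WHIM syndrome, so every cell of a mutant mouse carries it and no cell-type-restricted Cre is involved. Each library was made from a pool of 3000 sorted cells of 3 mice. There were 3 libraries per genotype and cell type, and 2 for 1013/1013 SSCs.

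RUNX2 is the transcription factor without which osteoblasts do not form, and SP7 (osterix) acts after it in committed preosteoblasts. DLX and MSX proteins are related homeodomain factors that lie downstream of BMP signals: DLX3, DLX5 and DLX6 favour osteoblast gene expression, whereas MSX1 and MSX2 are known from the proliferating progenitors of skull, jaw and limb. TWIST1 is a basic helix-loop-helix factor that holds back RUNX2 in immature mesenchyme, and ATF4 is a leucine zipper factor that osteoblasts use for amino acid import and for late matrix genes.

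The members lay on 7 mouse chromosomes of build mm10. Runx2 was at chr17:44495987-44814797, Sp7 at chr15:102356606-102367182, Dlx3 at chr11:95120119-95125296 and Dlx5 at chr6:6877805-6882085. Its neighbour Dlx6 was at chr6:6863334-6868568 on the opposite strand. Msx1 was at chr5:37820485-37824583, Msx2 at chr13:53466884-53473074, Atf4 at chr15:80255184-80257541 and Twist1 at chr12:33957671-33959829. Reads were counted over exons.

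Since 5 of the members are homeobox genes, the DNA-recognition segments of 4 are shown to make plain how close the 2 subfamilies are. The lines give codons 42 to 58 of the homeobox, 51 bases of coding sequence read from the GENCODE M21 transcripts, 5′ to 3′, with capitals at bases that differ from Dlx5.
Dlx5: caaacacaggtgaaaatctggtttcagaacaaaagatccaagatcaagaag
Dlx3: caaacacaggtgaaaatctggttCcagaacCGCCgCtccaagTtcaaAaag
Dlx6: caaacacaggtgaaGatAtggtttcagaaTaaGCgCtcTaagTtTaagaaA
Msx2: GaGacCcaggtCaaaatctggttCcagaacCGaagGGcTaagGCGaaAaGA
Dlx3 differed from Dlx5 at 8 of these bases and Dlx6 at 10, whereas Msx2 differed at 16. Over the whole homeobox of 180 bases, identity was 73.3% between Dlx5 and Dlx6, 71.7% between Dlx3 and Dlx5, and 58.9% between Dlx5 and Msx2. No stretch of 50 bases, the shortest read kept, was shared between any 2 members. Of the 50-base windows of the Runx2 transcripts, 5.66% also occurred in another gene, among them the antisense gene Runx2os1. The figure was 6.09% for Dlx6 (a repeat found in many genes), 0.465% for Msx2, 0.179% for Sp7 and 0% for Dlx3, Dlx5, Msx1, Atf4 and Twist1.

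The sequence before a RefSeq start of Runx2, a member that separated the cell types in every genotype below, is shown with its RUNX motif in capitals (ACCACA, searched on both strands). It is the 250 bases before the start of the RefSeq distal promoter, chr17:44814628-44814877 of GRCm38.p6, minus strand. The GENCODE start given above lies further upstream, so 170 of these bases, the motif included, are inside the gene as GENCODE draws it.
Runx2: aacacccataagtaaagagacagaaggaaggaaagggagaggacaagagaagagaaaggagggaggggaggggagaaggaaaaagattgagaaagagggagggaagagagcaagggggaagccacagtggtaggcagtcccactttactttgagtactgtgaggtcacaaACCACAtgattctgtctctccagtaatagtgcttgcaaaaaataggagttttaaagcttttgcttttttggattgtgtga
One motif lies in these bases, beginning 80 bases before the start, and 2 more begin at bases 24 and 32 after it. Of 32851 RefSeq promoter windows of 300 bases, 16.8% held this motif. Promoter windows were matched for 5 of the 9 members (Runx2, Msx1, Msx2, Atf4 and Twist1), and Msx1, Msx2, Atf4 and Twist1 held no ACCACA. None of the 5 held the homeodomain motif TAATTG (8% of all windows) or the ATF4-type motif TGATGNAA (3.97%). Transcription factor binding was not measured.

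Libraries held 64099849 to 92683497 counts on genes in OPCs and 44217695 to 50509592 in SSCs, so depth and cell type cannot be told apart, and after every library was thinned to the smallest total the same numbers of members were called as reported below. Levels are given in CPM, counts scaled to a common library size with TMM factors, and 3 counts in the smallest library are 0.0678 CPM before that scaling. The SSC and osteoblast marker sums followed the labels. In WT, the summed CPM of 6 SSC markers (Ly6a, Pdgfra, Cd34, Pi16, Dpt and Clec3b) was 1630 to 2390 in SSCs and 189 to 511 in OPCs. That of 6 osteoblast markers (Alpl, Bglap, Ibsp, Col1a1, Ifitm5 and Dmp1) was 8170 to 12200 in SSCs and 200000 to 302000 in OPCs. Sca-1 (Ly6a) and PDGFRα were themselves used in the sort. OPCs also held chondrocyte markers, at a summed 17800 to 51400 CPM in WT, 15400 to 70100 in +/1013 and 35100 to 98900 in 1013/1013. Leukocyte markers summed to 9520 CPM in WT OPC replicate 3 and 7550 in 1013/1013 OPC replicate 2, against 51.4 to 218 in the other OPC libraries. The part of these in the members' values was not tested. The WT SSC libraries stood apart from the mutant SSC libraries in technical measures. They detected 21449 to 22599 genes against 15748 to 19227, and 3.68% to 4.15% of their counted reads fell on no gene against 1.5% to 2.69%. Genotype and whatever sets these values cannot be told apart in SSCs. The library of 1013/1013 SSC replicate 1 had the fewest detected genes, 15748.

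Within WT cells, TPM, the same kind of value divided by transcript length so that genes can be compared, gave a different order in the 2 populations. In WT OPCs the mean TPM was 436 ± 42.2 (SD, n = 3) for Atf4, 303 ± 107 for Sp7, 107 ± 39.4 for Dlx3, 67.9 ± 6.88 for Dlx5, 40.6 ± 11.8 for Twist1 and 23.3 ± 1.23 for Runx2. Msx1 (6.18 ± 3.26), Dlx6 (5.39 ± 0.413) and Msx2 (0.962 ± 1.03) were the lowest. The ranges over libraries overlapped between Atf4 and Sp7, Dlx3 and Dlx5, and Msx1 and Dlx6. Within each library Atf4 was above Sp7 (483 against 194, 421 against 408 and 402 against 307). The order of Dlx3 and Dlx5, and of Msx1 and Dlx6, changed between libraries. Differences between members were not tested.

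In WT SSCs Atf4 again led with a TPM of 450 ± 33.9 (SD, n = 3), but Msx1 came next with 88.7 ± 31.9. Dlx5 (51.9 ± 33.9), Twist1 (51 ± 7.58), Dlx3 (50.3 ± 25.7), Sp7 (28.5 ± 18.6) and Runx2 (11.9 ± 5.43) followed, each with a range that overlapped its neighbour's. Dlx6 (2.2 ± 2.29) and Msx2 (1.31 ± 0.893) were lowest and overlapped each other.

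**Figure D1:**
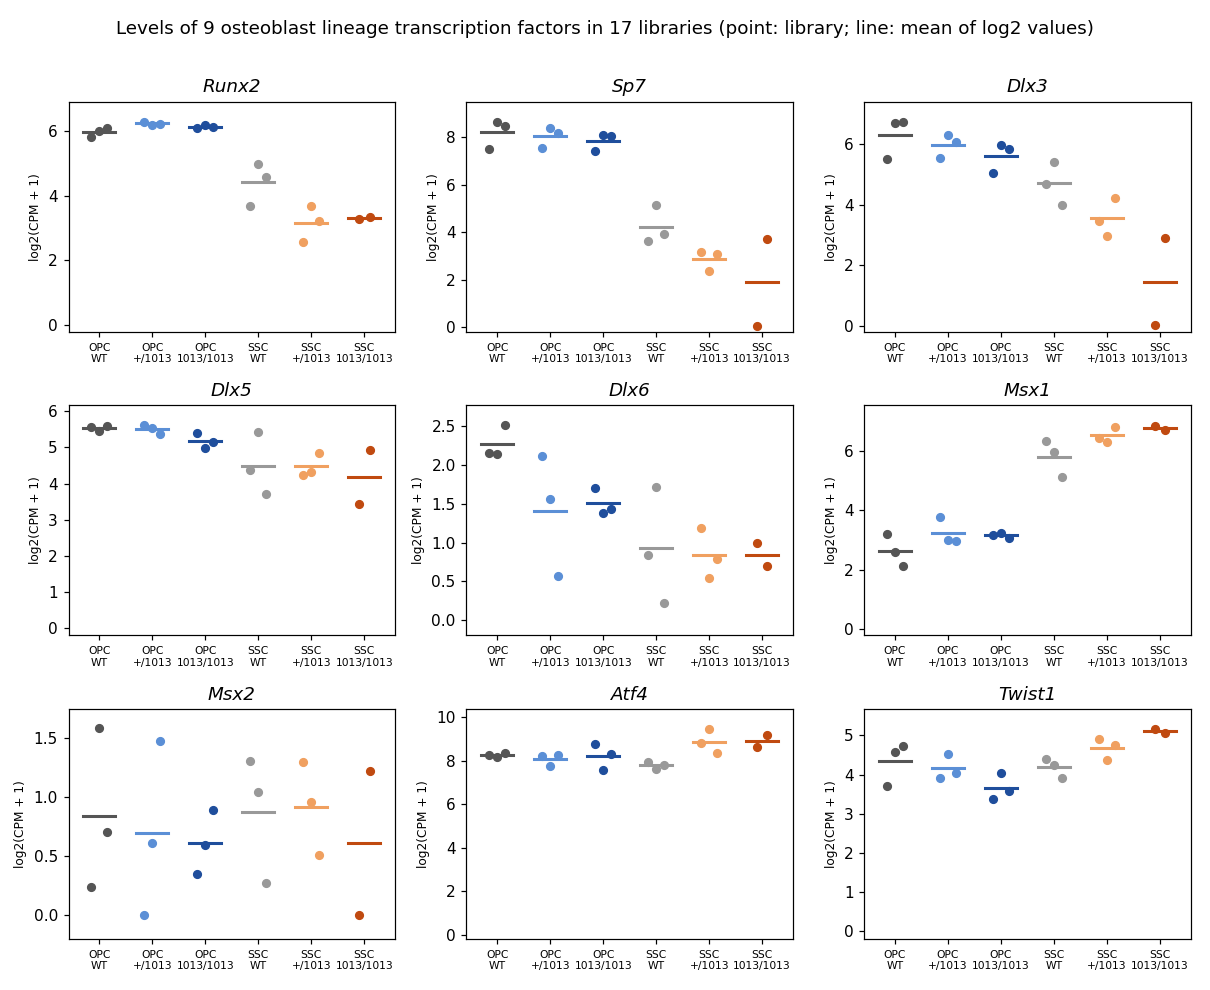
Level of each member as log2(CPM + 1) in 17 libraries, with groups on the x axis, 1 point per library and a line at the mean of the log2 values. Runx2 and Sp7 are higher in all 9 OPC libraries than in any of the 8 SSC libraries, Msx1 is the reverse, and the 1013/1013 SSC group has 1 library with Sp7 and Dlx3 near 0.

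The first comparison asked how the factors differ between progenitors and stem cells of the same genotype. In WT, Runx2 and Sp7 were lower and Msx1 was higher in SSCs than in OPCs, and the remaining 6 members were not called. Calls required 1.5-fold or more and, in edgeR's quasi-likelihood test, an adjusted p (Benjamini-Hochberg, over all tested genes) below 0.05. Of the 9 members, 1 was called higher and 2 lower in WT SSCs, where 5.55% and 5.86% of 20238 tested genes were called in these directions. The same 3 members were called in +/1013 cells (background 6.44% higher and 6.02% lower). In 1013/1013 cells, 2 were called higher and 3 lower (background 6.94% and 6.12%), with Twist1 and Dlx3 added. The median log2 fold change of the 9 members was -0.92, -1.04 and -0.84 in WT, +/1013 and 1013/1013, beside 0.17, 0 and -0.20 over all genes. In bulk RNA, fewer cells of a type and less RNA per cell cannot be told apart.

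Runx2, the master regulator of the lineage, was measured at 55.2, 62.3 and 67.5 CPM in WT OPCs and at 11.8, 30.3 and 22.8 in WT SSCs. All SSC libraries were below all OPC libraries. The log2 fold change was -1.53 ± 0.32 (SE, adjusted p = 0.00665), a 2.88-fold lower level. In +/1013 cells Runx2 stood at 76.3, 71.7 and 73.3 CPM in OPCs and 4.99, 11.7 and 8.27 in SSCs. The groups were far apart, with a log2 fold change of -3.16 ± 0.34 (adjusted p = 4.05e-05). In 1013/1013 cells the OPC values of 67.4, 71 and 67.6 CPM stood against 8.74 and 9.23 in SSCs, a log2 fold change of -2.93 ± 0.39 (adjusted p = 0.000315). Between the mutant OPC libraries Runx2 varied little, with a coefficient of variation of 3.19% in +/1013 and 2.95% in 1013/1013.

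Sp7, the factor of committed preosteoblasts, was at 181, 396 and 357 CPM in WT OPCs and 11.4, 34.4 and 14.1 in WT SSCs. The groups did not overlap, and the level was 15.7-fold lower in SSCs (log2 fold change -3.98 ± 1.06, adjusted p = 0.0264). This call was lost, at an adjusted p of 0.0566 to 0.103, when WT OPC replicate 2 or 3 or WT SSC replicate 1 or 3 was left out. In +/1013 cells Sp7 was at 184, 336 and 290 CPM in OPCs and 8.01, 4.14 and 7.44 in SSCs (log2 fold change -5.37 ± 1.13, adjusted p = 0.00704). In 1013/1013 cells it was at 169, 271 and 261 CPM in OPCs and at 0.0365 and 12.1 in SSCs. The lowest of these values rested on 2 counts, under the 3-count limit, in the SSC library with the fewest detected genes. The log2 fold change was -5.27 ± 1.35 (adjusted p = 0.0208), and without that library -4.27, with 1 SSC library left. The call was lost when only the 2 groups compared were fitted (edgeR adjusted p = 0.212).

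Dlx3, a homeobox gene of osteoblasts, teeth and hair, fell short of a call in WT (44.8, 103 and 106 CPM in OPCs, 25, 41.8 and 15.1 in SSCs). The groups did not overlap in TMM-scaled CPM, with a log2 fold change of -1.65 ± 0.93 (adjusted p = 0.272). On raw library totals they did, with 56.8 in WT SSC replicate 2 and 38.7 in WT OPC replicate 1. In +/1013 cells the log2 fold change was -2.47 ± 0.96 (adjusted p = 0.112), and DESeq2 called it (adjusted p = 0.027). In 1013/1013 cells Dlx3 was at 32.2, 61.7 and 56.9 CPM in OPCs and at 0.0183 (1 count) and 6.4 in SSCs. It was called lower there (log2 fold change -3.97 ± 1.22, adjusted p = 0.0468), but not when any 1 of the OPC libraries was left out (adjusted p 0.0583 to 0.0874). Without the SSC library that held 1 count, the log2 fold change was -2.97 (adjusted p = 0.0461).

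Dlx5 and Dlx6 share a locus and overlap in function in the jaw and limb skeleton. Dlx5 was at 46.6, 43.2 and 47.6 CPM in WT OPCs and 19.6, 41.7 and 12 in WT SSCs. In TMM-scaled CPM the SSC libraries were all lower but widely scattered. On raw library totals WT SSC replicate 2 (56.6) was above all WT OPC libraries (34.5 to 40.2). The log2 fold changes in the 3 genotypes, -0.92 ± 0.41, -1.04 ± 0.42 and -0.84 ± 0.47, were not called by edgeR (adjusted p = 0.171, 0.121 and 0.251). DESeq2 called Dlx5 lower in +/1013 SSCs (adjusted p = 0.0429). Without WT SSC replicate 2 it was called in WT (-1.55, adjusted p = 0.0315), and without 1013/1013 SSC replicate 2 in 1013/1013 (-1.78, adjusted p = 0.0375). Dlx6 was near the bottom of the range, at 3.45, 3.41 and 4.74 CPM in WT OPCs and 0.795, 2.3 and 0.159 in WT SSCs. Its log2 fold changes of -1.85 ± 0.89, -1.22 ± 0.88 and -1.21 ± 1.01 were not called either (adjusted p = 0.201, 0.385 and 0.43). The antisense gene Dlx6os1, which spans Dlx6 but shares 0 bases of exon with it, had 0 to 846 counts in a library.

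Msx1, the homeobox gene of progenitor pools, ran opposite to the Dlx genes. In WT it was at 8.18, 5.07 and 3.35 CPM in OPCs and 79.3, 60.6 and 33.9 in SSCs. Every SSC library was above every OPC library, by 10.4-fold on average (log2 fold change 3.37 ± 0.39, adjusted p = 0.000117). In +/1013 cells it was at 12.8, 6.96 and 6.85 CPM in OPCs and 85, 78.1 and 111 in SSCs (log2 fold change 3.36 ± 0.38, adjusted p = 7.79e-05). In 1013/1013 cells the values were 8.08, 8.54 and 7.44 CPM in OPCs and 114 and 103 in SSCs (log2 fold change 3.76 ± 0.41, adjusted p = 5.47e-05). Msx1 was called in each genotype under every alternative tried, as was Runx2. Its paralog Msx2 was barely detected, at 0 to 2 CPM in the 17 libraries and at 0 in 1 OPC and 1 SSC library, and its groups overlapped in all comparisons, so no fold change is given for it.

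Twist1, the restraint on RUNX2, did not separate the populations in WT, with 12.1, 22.8 and 25.4 CPM in OPCs and 20.1, 18.1 and 14 in SSCs (log2 fold change -0.22 ± 0.30, adjusted p = 0.697). The groups overlapped, although not on raw library totals, where SSCs were higher (19.8 to 26 against 10.5 to 18.8). They also overlapped in +/1013 (log2 fold change 0.53 ± 0.31, adjusted p = 0.274). In 1013/1013 cells Twist1 was at 9.45, 15.5 and 10.9 CPM in OPCs and 34.9 and 32.5 in SSCs. These did not overlap, and Twist1 was called 2.82-fold higher in SSCs (log2 fold change 1.49 ± 0.34, adjusted p = 0.0107). Without SSC replicate 1 the adjusted p was 0.0649. Atf4, the amino acid response factor, was at 312, 284 and 324 CPM in WT OPCs, 294, 219 and 307 in +/1013 OPCs and 436, 193 and 320 in 1013/1013 OPCs. It was at 198 to 245 CPM in WT SSCs, below the WT OPCs, an order that turned when counts were divided by raw library totals (269 to 317 in SSCs and 226 to 269 in OPCs). It stood at 326 to 698 CPM in +/1013 SSCs, above the +/1013 OPCs. Its log2 fold changes from OPCs to SSCs, -0.48 ± 0.31 in WT, 0.85 ± 0.31 in +/1013 and 0.61 ± 0.34 in 1013/1013, were not called (adjusted p = 0.337, 0.0914 and 0.247), though the +/1013 value was without SSC replicate 3 (1.07, adjusted p = 0.0469).

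**Figure D2:**
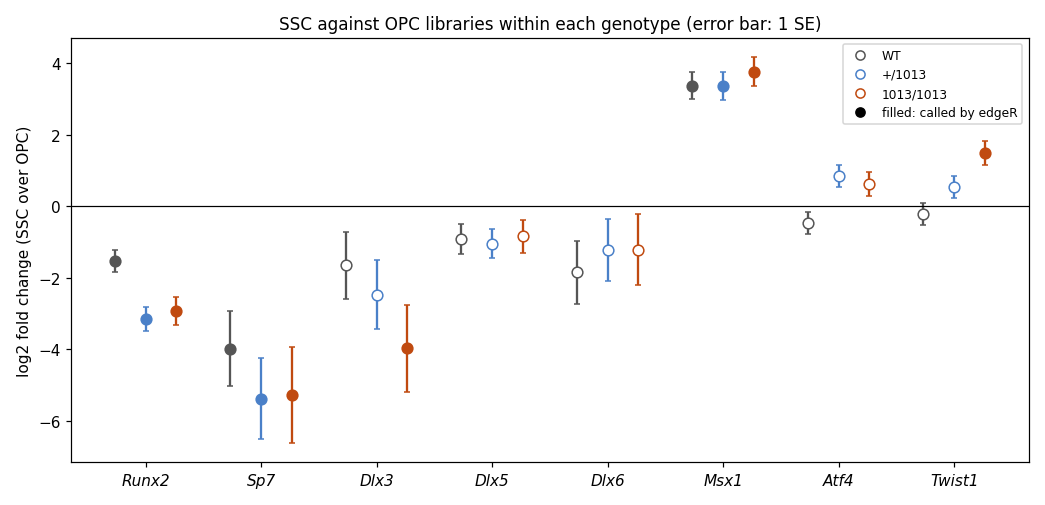
Log2 fold change of 8 members in SSCs over OPCs within WT, +/1013 and 1013/1013 mice, with bars of 1 SE and filled points for calls. Runx2 (-1.53 to -3.16) and Sp7 (-3.98 to -5.37) lie below 0 and Msx1 (3.36 to 3.76) above it in each genotype, and Atf4 and Twist1 sit on either side of 0.

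In OPCs, the genotype comparisons gave no call for any member. For +/1013 against WT, edgeR called 0 of 9 (background 0% of 16207 genes), 0 members passed an unadjusted p of 0.05 (background 2.04%), and DESeq2 called 0 (background 0.358%). For 1013/1013 against WT the numbers were 0 (background 0.00617%), 1 (3.38%) and 0 (0.259%). For 1013/1013 against +/1013 they were 0 (background 0%), 0 (3.17%) and 0 (0.364%). The 2 comparisons with WT share the WT libraries. In CPM, groups did not overlap for 2 of the 9 members in +/1013 (Runx2 higher and Dlx6 lower, background 5.26%) and for 2 in 1013/1013 (Dlx5 and Dlx6 lower, background 7.68%). The median log2 fold change of the members was -0.22 in +/1013 and -0.42 in 1013/1013, beside 0 and 0.01 over all genes.

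The Runx2 level in OPCs was almost flat across genotypes, with log2 fold changes from WT of 0.25 ± 0.14 in +/1013 and 0.15 ± 0.14 in 1013/1013 (edgeR adjusted p = 1 in both). Sp7 stood at -0.22 ± 0.36 and -0.42 ± 0.36, and Dlx3 at -0.43 ± 0.39 and -0.76 ± 0.39 on the same scale, with an edgeR adjusted p of 1 in each case. Dlx5 was at 40.8, 30.9 and 34.2 CPM in 1013/1013 OPCs, all below the WT values of 43.2 to 47.6. This was the member below an unadjusted 0.05 in that comparison (log2 fold change -0.38 ± 0.16, edgeR adjusted p = 1). Dlx6 was at 3.45, 3.41 and 4.74 CPM in WT, 3.32, 1.94 and 0.477 in +/1013 and 2.26, 1.61 and 1.69 in 1013/1013 OPCs. In CPM each mutant library was below each WT library, without a call. On raw library totals Dlx6 in +/1013 replicate 1 (3.37) was above WT replicates 1 and 2 (2.98 and 2.72). Dlx5 in 1013/1013 replicate 1 (38.9) then lay within the WT range (34.5 to 40.2).

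Sp7, Dlx3 and Twist1 varied widely within each OPC genotype. In each of the 3 genotypes, replicate 1 had the lowest Sp7 (181, 184 and 169 CPM), the lowest Dlx3 (44.8, 45.5 and 32.2 CPM) and the lowest Twist1 (12.1, 14 and 9.45 CPM). The same 3 libraries had the lowest summed osteoblast markers of their genotypes (200000, 144000 and 97500 CPM) and the highest summed SSC markers (511, 603 and 274 CPM). The part of this in the members' levels was not tested. For all 3 genes, each 1013/1013 OPC library was also below the +/1013 library of its own number. Each was below the WT library of that number too, but those libraries share only a number. With the replicate number as a block, 1013/1013 against +/1013 OPCs gave log2 fold changes of -0.19 ± 0.15 for Sp7, -0.36 ± 0.17 for Dlx3 and -0.53 ± 0.25 for Twist1 (edgeR adjusted p = 1 in each). That fit set the block over the WT OPC libraries as well, so it is not a test of the +/1013 and 1013/1013 pairs alone. Runx2 did not follow the replicate number: replicate 1 was the lowest in WT and 1013/1013 and the highest in +/1013.

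In SSCs, edgeR called no member between genotypes, while DESeq2 called Runx2, Atf4 and Twist1 in 1 or both mutants. For +/1013 against WT, edgeR called 0 of 9 (background 0.0736% of 17659 genes), 2 members passed an unadjusted p of 0.05 (Runx2 and Atf4, background 17.3%) and DESeq2 called these 2 (background 7.37%). For 1013/1013 against WT the numbers were 0 (background 0%), 4 (Runx2, Msx1, Atf4 and Twist1, 18.3%) and 2 (Atf4 and Twist1, 9.67%). For 1013/1013 against +/1013 they were 0 (background 0%), 0 (5.53%) and 0 (0.957%). Both mutant groups were compared with the same WT libraries. In CPM, groups did not overlap for 3 members in +/1013 (background 31.2%) and for 5 in 1013/1013 (background 40.6%). The members' median log2 fold change was -0.18 and -0.39, beside -0.11 and -0.23 over all genes.

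Runx2 stood at 11.8, 30.3 and 22.8 CPM in WT SSCs, as above, with 4.99, 11.7 and 8.27 in +/1013 and 8.74 and 9.23 in 1013/1013. All 5 mutant libraries were below the lowest WT library. The log2 fold changes were -1.39 ± 0.45 (edgeR unadjusted p = 0.0154, adjusted p = 0.199, DESeq2 adjusted p = 0.0342) and -1.24 ± 0.51 (edgeR unadjusted p = 0.0431, adjusted p = 0.262, DESeq2 adjusted p = 0.0985). Sp7 had larger errors, at -1.62 ± 1.31 and -1.72 ± 1.52 (edgeR adjusted p = 0.594 and 0.548). Dlx3 stood at -1.25 ± 1.22 and -3.09 ± 1.54 (edgeR adjusted p = 0.684 and 0.323). In 1013/1013 SSCs the values of Sp7 and Dlx3 were decided by 1 library each way: without replicate 1 the log2 fold changes from WT were -0.73 and -2.09, and without replicate 2 both were called (-9.02 and -10.39, edgeR adjusted p = 0.00637 and 0.00499), with the lone remaining library assumed to vary like the other groups.

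Atf4 was at 245, 198 and 224 CPM in WT SSCs, at 455, 698 and 326 in +/1013 and at 395 and 573 in 1013/1013. Every mutant library was above every WT library. The log2 fold change was 1.14 ± 0.30 in +/1013 (edgeR unadjusted p = 0.00567, adjusted p = 0.158, DESeq2 adjusted p = 0.0141) and 1.14 ± 0.33 in 1013/1013 (edgeR unadjusted p = 0.00867, adjusted p = 0.164, DESeq2 adjusted p = 0.0266). On the TPM scale the group means were 450 ± 33.9 (SD, n = 3), 737 ± 236 (n = 3) and 724 ± 122 (n = 2), again without overlap between WT and mutants but with smaller ratios.

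Twist1 was at 20.1, 18.1 and 14 CPM in WT SSCs, 29.1, 19.6 and 25.9 in +/1013 and 34.9 and 32.5 in 1013/1013. Both 1013/1013 libraries were the highest of the 8, whereas +/1013 overlapped with WT. The log2 fold change was 0.51 ± 0.23 in +/1013 (edgeR adjusted p = 0.313) and 0.98 ± 0.26 in 1013/1013 (edgeR unadjusted p = 0.0055, adjusted p = 0.144, DESeq2 adjusted p = 0.0211). From +/1013 to 1013/1013 it was 0.48 ± 0.26 (edgeR adjusted p = 0.788). Msx1 stood at 0.65 ± 0.30 in +/1013 and at 0.94 ± 0.33 in 1013/1013 (edgeR adjusted p = 0.313 and 0.211). Its 1013/1013 libraries, at 114 and 103 CPM, were above the WT libraries at 79.3, 60.6 and 33.9. In TPM these groups overlapped, with 140 and 111 in 1013/1013 and 116, 96 and 53.8 in WT. The mean TPM of Twist1 was 51 ± 7.58 (SD, n = 3) in WT and 74 ± 10.5 (n = 2) in 1013/1013 SSCs. These did not overlap, but the ratio was smaller than in CPM.

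**Figure D3:**
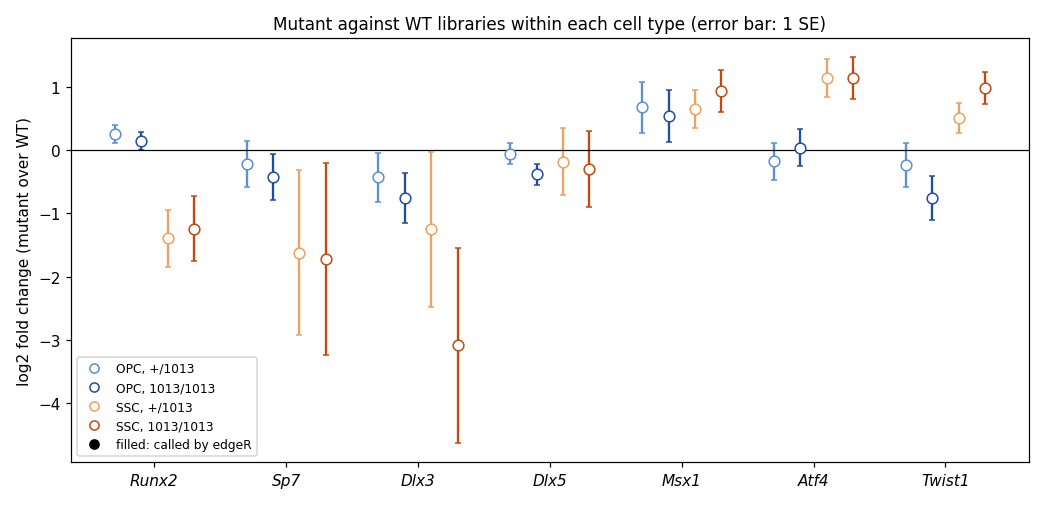
Log2 fold change of 7 members in mutant over WT libraries within OPCs and SSCs, with bars of 1 SE; no point is filled, since edgeR called none. In SSCs Runx2 sits at -1.39 and -1.24 and Atf4 at 1.14 in both mutants, whereas in OPCs both are within 0.25 of 0.

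Markers of other cell types moved with genotype in the SSC libraries. The 6 osteoblast markers summed to 9950, 12200 and 8170 CPM in WT, 1910, 2440 and 3620 in +/1013 and 1950 and 4480 in 1013/1013 SSCs, and none of the 6 was at 0 in any library. The 6 SSC markers went the other way, from 1630 to 2390 CPM in WT to 3250 to 4730 in +/1013 and 2900 to 5870 in 1013/1013. Of these 6, edgeR called 0, and 5 were higher at an unadjusted 0.05 in each mutant (background 17.3% and 18.3%). DESeq2 called 2 higher in +/1013 (background 7.37%) and 4 in 1013/1013 (9.67%). The osteoblast sum was mostly Col1a1, at 7590 to 10600 CPM in WT and 1000 to 2960 in mutant SSCs. Without Col1a1, a calculation added after its values were seen, the other 5 genes summed to 1080, 1520 and 580 CPM in WT and overlapped with 910, 1270 and 652 in +/1013 and 322 and 1920 in 1013/1013. The SSC libraries with less Runx2 thus had less Col1a1 and a higher SSC marker sum, and the part of these in the members' values was not tested. The 10 leukocyte markers summed to 174 to 3240 CPM in WT, 42.7 to 112 in +/1013 and 512 to 894 in 1013/1013 SSCs. In +/1013, edgeR called 0 of these, 9 were lower at an unadjusted 0.05 (background 17.3%) and DESeq2 called 9 lower (7.37%). In 1013/1013 all 3 numbers were 0 (background 0%, 18.3% and 9.67%). The sums of the erythroid, endothelial and muscle lists overlapped between WT and mutant SSCs, in ranges over the 8 SSC libraries of 110 to 885, 24.6 to 140 and 3.6 to 125 CPM. The chondrocyte sum also overlapped (3290 to 21000 CPM), but it was carried by Comp (3290 to 20900 CPM). The other 4 of its 5 genes were lower in every mutant than in every WT SSC library: Col2a1 at 447 to 3340 CPM in WT and 3.5 to 104 in mutants, Acan at 62.2 to 244 and 3.87 to 46.2, Col9a1 at 18.3 to 173 and 0.0548 to 10.3, and Matn3 at 16.9 to 128 and 0.0548 to 8.66. Over all genes, groups did not overlap with WT for 31.2% in +/1013 and 40.6% in 1013/1013 SSCs. EdgeR called 0 of the 5, with 4 below an unadjusted 0.05 in +/1013 (background 17.3%) and 1 in 1013/1013 (18.3%). DESeq2 called 2 (background 7.37%) and 1 (9.67%), all lower. The part of these in the members' values was not tested either.

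**Figure D4:**
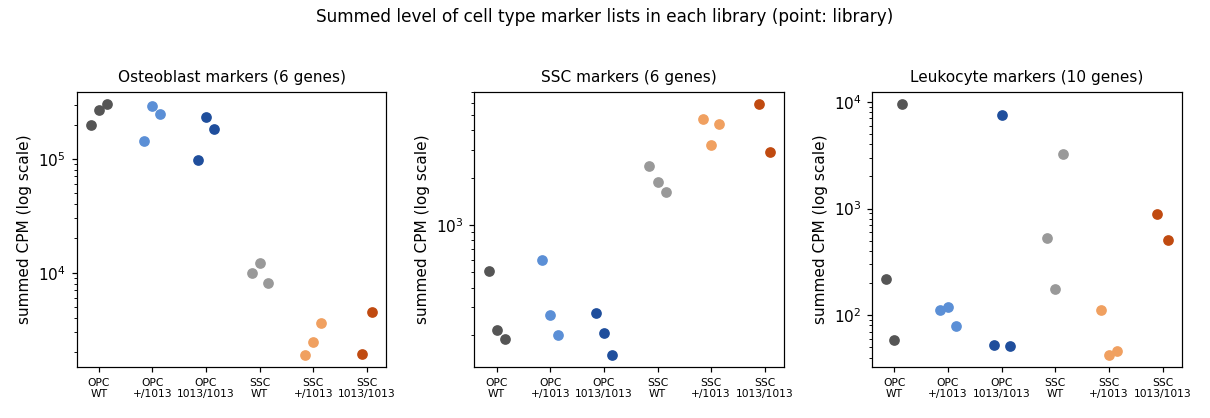
Summed CPM on a log scale of the osteoblast, SSC and leukocyte marker lists, 1 point per library. Mutant SSC libraries (1910 to 4480 CPM) lie below WT SSC libraries (8170 to 12200 CPM) for the osteoblast list, a separation carried by Col1a1 since the other 5 genes overlap in sum, and above them for the SSC list.

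Whether the mutant effect itself differed between the cell types was tested as an interaction in a fit of all 17 libraries. For the +/1013 effect, edgeR called 0 of 9 members (background 0.084% of 20238 genes), 2 passed an unadjusted p of 0.05 (background 10.6%) and DESeq2 called 1 (2.16%). For the 1013/1013 effect the numbers were 0 (background 0.153%), 3 (15%) and 1 (5.64%). Without 1013/1013 SSC replicate 2, edgeR called 3 members for the latter (Sp7, Dlx3 and Twist1), on the lone remaining library. The SSC effect minus the OPC effect was -1.63 ± 0.44 for Runx2 in +/1013 (edgeR unadjusted p = 0.00238, adjusted p = 0.28, DESeq2 adjusted p = 0.0244) and -1.41 ± 0.47 in 1013/1013 (edgeR unadjusted p = 0.00973, adjusted p = 0.22, DESeq2 adjusted p = 0.0641). For Twist1 it was 0.75 ± 0.43 in +/1013 (edgeR adjusted p = 0.567) and 1.72 ± 0.45 in 1013/1013 (edgeR unadjusted p = 0.00208, adjusted p = 0.157, DESeq2 adjusted p = 0.0137). For Atf4 it was 1.33 ± 0.44 and 1.09 ± 0.46 (edgeR adjusted p = 0.373 and 0.298). Over all genes the median of this difference was -0.14 in +/1013 and -0.39 in 1013/1013.

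Genes that act with or under the members were counted from lists drawn up from textbook knowledge, with earlier results of these data known. Their counts stand beside the shares over all genes given above for the members. Of 10 matrix and mineral genes downstream of RUNX2 and SP7, 0 were higher and 9 lower in WT SSCs than in WT OPCs (median log2 fold change -4.08, beside 0.17 over all genes). The 4 largest were Ifitm5 (-7.43 ± 0.59, adjusted p = 4.19e-06), the osteocyte gene Dmp1 (-7.21 ± 1.28, adjusted p = 0.0028), Col1a1, a main bone collagen (-4.80 ± 0.53, adjusted p = 9.2e-05), and Bglap, which encodes osteocalcin (-5.75 ± 0.82, adjusted p = 0.000694). In +/1013 and 1013/1013 cells 9 and 7 of the 10 were lower and 0 higher. This list holds all 6 genes of the osteoblast marker list, so its counts largely repeat that check. Between genotypes edgeR called 0 of the 10 in either cell type. DESeq2 called 1 lower in +/1013 SSCs (Col1a1, adjusted p = 1.33e-06, background 7.37%). In 1013/1013 SSCs DESeq2 called 2 lower (Col1a1, adjusted p = 0.000437, and Dmp1, adjusted p = 0.0337, background 9.67%). Dmp1 was low there, at 0.0365 and 0.41 CPM, with 8, 1.53 and 1.56 in WT SSCs. In SSCs, 1 passed an unadjusted edgeR p of 0.05 in +/1013 (background 17.3%) and 2 in 1013/1013 (background 18.3%), all lower. Col1a1 led in both (-2.41 ± 0.46 and -2.09 ± 0.53, edgeR adjusted p = 0.11 and 0.136).

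Of 10 repressors and attenuators of RUNX2, 2 were higher and 0 lower in WT SSCs: Zfp521, a zinc finger protein that antagonizes RUNX2 (2.51 ± 0.29, adjusted p = 0.000129), and Hes1, a Notch target (1.30 ± 0.35, adjusted p = 0.0294). Both were also called higher in +/1013 cells, whereas in 1013/1013 cells 0 were called higher and 1 lower (Snai2, -1.16 ± 0.33, adjusted p = 0.035). Between genotypes edgeR called 0, and DESeq2 called Zfp521 lower in 1013/1013 SSCs (adjusted p = 0.0107, background 9.67%). Zfp521 stood at 0.71 ± 0.25 and 0.74 ± 0.25 in +/1013 and 1013/1013 OPCs (edgeR adjusted p = 1 in both) and at -0.83 ± 0.28 and -1.18 ± 0.33 in the SSCs (edgeR adjusted p = 0.212 and 0.16). Its effect differed between the cell types by -1.93 ± 0.42 in 1013/1013 (edgeR adjusted p = 0.0989, DESeq2 adjusted p = 0.000781). Of the 3 RUNX partners and paralogs, 0 were called in WT SSCs against OPCs (Cbfb -1.06 ± 0.42, Runx3 -1.56 ± 0.97). Runx3 was called lower in +/1013 (-5.06 ± 1.14, adjusted p = 0.0105) and 1013/1013 cells (-5.20 ± 1.37, adjusted p = 0.0237). Its SSC values were low, at 1.14, 0.306 and 0.14 CPM in +/1013 and 0.0183 and 1.66 in 1013/1013, so these sizes are uncertain. Between genotypes edgeR called 0 of the 3, and DESeq2 called Runx3 lower in +/1013 SSCs (adjusted p = 0.0468, background 7.37%).

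Of the coactivators and other osteoblast transcription factors, 0 were called higher in WT SSCs, and those called lower included Tcf7 (-3.36 ± 0.98, adjusted p = 0.0406) and Mef2c (-2.03 ± 0.50, adjusted p = 0.0177). Of 12 transcription factors of other mesenchymal fates, 4 were higher and 0 lower, namely Ebf2, Osr1, Osr2 and Ebf1 (log2 fold changes 4.53, 3.20, 2.79 and 2.41). Of 9 tested limb and jaw homeobox and forkhead genes, Prrx2 (2.22 ± 0.42) and Prrx1 (1.49 ± 0.25) were called higher and 0 lower. Alx4 of this list was called lower in 1013/1013 cells (-8.43 ± 2.19, adjusted p = 0.0225). It was at 0 and 0.0372 CPM in these SSCs and 3.82 to 9.06 in the OPCs, so the size of the change rests on values near 0. No gene of these 3 lists was called between genotypes by edgeR. DESeq2 called Ebf2 higher in +/1013 SSCs (adjusted p = 0.0427, background 7.37%) and Osr2 higher in 1013/1013 SSCs (adjusted p = 0.0138, background 9.67%).

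For ATF4, 13 target genes of the amino acid response were measured. In WT SSCs against OPCs, 0 were higher and 1 lower, the serine synthesis gene Psat1 (-3.58 ± 0.92, adjusted p = 0.0226). In +/1013 cells 0 were higher and 3 lower, and in 1013/1013 cells 1 was higher and 2 lower. In mutant SSCs, where every library had more Atf4 than the WT libraries, the targets had median log2 fold changes of -0.09 in +/1013 and -0.47 in 1013/1013 SSCs, beside -0.11 and -0.23 over all genes. At an unadjusted edgeR p under 0.05, 1 was higher and 2 lower in each mutant (background 17.3% of all genes in +/1013 and 18.3% in 1013/1013). Atf3, another stress-induced factor, was at 1.38 ± 0.51 and 1.40 ± 0.55 (edgeR adjusted p = 0.234 and 0.24), Sesn2 at -1.08 ± 0.32 in +/1013 (edgeR adjusted p = 0.176, DESeq2 adjusted p = 0.0218) and Ddit4 at -2.84 ± 0.93 in 1013/1013 (edgeR adjusted p = 0.19, DESeq2 adjusted p = 0.00836). EdgeR called 0 of the 13 between genotypes. DESeq2 called 2 lower in +/1013 (background 7.37%) and 1 lower in 1013/1013 SSCs (background 9.67%).

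The genes whose profile over the 17 libraries was most like each member were found by the root mean square difference of centred log2(CPM + 1) values among genes averaging 10 CPM or more, and are given as a description. For Runx2 they were Nrp2 (0.39) and Tgfb1 (0.44), for Sp7 Insc (0.61) and Mlip (0.64), and for Dlx3 Klhl25 (0.55) and Arhgef19 (0.55). Msx1 was closest to Cxcl14 (0.36) and Nsg1 (0.36), and Twist1 to Eif4ebp1 (0.2) and Ndufa4 (0.23). Atf4 was closest to Tuba1a (0.24) and Zfp954 (0.25), Dlx5 to Smarcd3 (0.29) and Clcn4 (0.32), Dlx6 to AI837181 (0.38) and Podxl2 (0.41), and Msx2 to Tbpl1 (0.3) and Ebna1bp2 (0.34). The members' own SD on this scale ran from 0.5 for Msx2 to 2.72 for Sp7.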

How the data were processed

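Bulk RNA-seq libraries of sorted OPCs and SSCs from WT, +/1013 and 1013/1013 mice were analysed (17 libraries, 44217695 to 92683497 counts on genes). Per the study's methods, the authors made SMART-Seq v4 cDNA and Nextera XT libraries, dropped reads shorter than 50 bases, mapped the rest to mm10 (STAR) and obtained gene counts from HTSeq. The kit does not mark strand, and HTSeq's settings are not given in the sources used here, so reads of Runx2 and its antisense gene Runx2os1 (5.87% of the exon bases of Runx2 shared, 17 to 64 counts a library on the antisense gene) cannot be told apart where they overlap. The deposited values are whole-number counts per gene. Of 55335 gene identifiers, 55154 matched GENCODE M21. HTSeq's rows that name no gene stayed out: 1.15% to 4.15% of a library's reads fell on no gene.

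The main test was edgeR 4.0.16 (glmQLFit with legacy = TRUE, filterByExpr, TMM) in R 4.3.3, with the 3 genotypes of a cell type in one fit and all 17 libraries in one fit for comparisons across cell types. Calls needed a 1.5-fold change and an adjusted p below 0.05 (Benjamini-Hochberg, all tested genes). SE is the absolute log2 fold change divided by the square root of F. DESeq2 1.42.0 and other normalizations, filters, fits and left-out libraries were alternatives. Same-numbered libraries deviated together, every pair over 0.1, for +/1013 with 1013/1013 OPCs (0.17, 0.13 and 0.23) and for WT OPCs with WT SSCs (0.13, 0.25 and 0.4). These were taken as paired from the data, since no label ties the numbers to a shared litter or day. The other OPC pairs ran from -0.39 to 0.42 and the SSC pairs from -0.17 to 0.15, and those comparisons were treated as sharing only a number. The limit of 0.1 is no test of pairing: WT with +/1013 OPCs, at 0.39, 0.09 and 0.11, only just missed it. A library deviated most like its own number in 10 of 18 comparisons with another OPC genotype and in 4 of 14 in SSCs. The quasi-likelihood script was tested on simulated data. CPM used TMM-scaled library sizes, TPM the union of exons. Lists of genes named beside the members give their called genes, at most 4 by size of change, or the 2 smallest p-values where none was called. Some of these genes and 1 homeobox sequence are not reported here. SE and p-values of fold changes rest on the spread between pools, and SD is the spread between the libraries of a group. The 3-count limit concerns counting only. Members and lists were chosen with earlier results of these data known. Figures were drawn with matplotlib 3.10.9.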

Additional observations from a re-analysis of the deposited data

How the results depend on the processing

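The numbers of members called, over the alternatives other than leaving out a library, differed by more than 1.5 times from those above in these cases. DESeq2 called 5 in +/1013 SSCs against OPCs, 2 in each comparison of mutant with WT SSCs, and 1 for each mutant's difference between cell types. Fitting only the 2 groups compared gave 5 for +/1013 and 2 for 1013/1013 SSCs against OPCs. The 2 were Runx2 and Msx1, so the 1013/1013 calls of Sp7, Dlx3 and Twist1 were lost there. A minimum of 10 counts in every library gave 3 for 1013/1013 SSCs against OPCs, because Sp7 and Dlx3 could not enter. With 1 library left out at a time, SSCs against OPCs gave 2 to 4 in WT, 3 to 4 in +/1013 and 4 to 6 in 1013/1013. The 1013/1013 effect between cell types gave 0 to 3, 1013/1013 against WT SSCs 0 to 2 and 1013/1013 against +/1013 SSCs 0 to 2, each upper value of these 3 without 1013/1013 SSC replicate 2. The other genotype comparisons gave 0 to 0. Of 822 values of the 50 reported fold changes under the alternatives, 1 changed sign: Sp7 in +/1013 against WT OPCs, whose leave-one-out values ran from -0.481 to 0.009. With the replicate number as a block, 3, 3 and 5 members were called for SSCs against OPCs and 0 elsewhere. The same members were called as without the block in WT SSCs against OPCs (Runx2, Sp7 and Msx1). The bias-adjusted quasi-likelihood test, added after seeing the data, gave 4 for +/1013 SSCs against OPCs. With 2 or 3 pools a group, a p above the threshold does not show equal levels.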
